A study of Homo sapiens with 35 samples.

Results

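Immunoglobulin transcripts were examined in RPMI-8226 cells, an established human multiple myeloma line, before and after a pulse of carfilzomib, an irreversible inhibitor of the proteasome. The members were all rows of the deposited count table whose biotype names an immunoglobulin constant, variable, joining or diversity segment or pseudogene and that held 100 or more counts over the 35 libraries. Of the 414 immunoglobulin rows among 84647 rows, 32 met this rule, 85 held between 1 and 99 counts and 297 held no count. The members comprised 14 rows of the lambda light chain (4 constant, 5 variable and 5 pseudogene rows), 10 of the kappa light chain (1 constant, 4 variable and 5 joining rows) and 8 of the heavy chain (6 constant and 2 pseudogene rows). Just inside the limit were IGKV2D-40 with 169 counts and IGLVIVOR22-1 with 102, and just outside were IGLV1-51 with 96, IGLV6-57 with 73 and IGHE, the constant region of IgE, with 69. Cells were exposed to 750 nM carfilzomib for 1 h, and RNA from 5 subcultures was sequenced at each of days 0, 1, 2, 4, 6, 8 and 10. The labels list carfilzomib for the day 0 libraries as well, whereas the methods of the study place their collection ahead of drug exposure, and day 0 was used as the untreated group. All groups derive from 1 line. The methods of the study describe subcultures split from an expanded culture, whereas its figure legends refer to the sequenced replicates as independent experiments, so the p-values measure the spread between these libraries, which may be technical.

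An antibody pairs heavy chains with light chains of the kappa or the lambda class. Each chain is encoded by a variable segment joined to a joining segment (and, in heavy chains, a diversity segment) during B cell development, followed by a constant region that is spliced on in the messenger RNA. Plasma cells and the myeloma cells derived from them transcribe their productively joined genes at very high levels, and a myeloma clone usually makes a single class of light chain. Newly made chains are folded in the endoplasmic reticulum by chaperones, and chains that fail to fold are degraded by the proteasome. Levels are estimated counts scaled to the total of all rows of a library (CPM).

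Most immunoglobulin counts fell on rows of near-identical sequence, which bears on how far their counts can be told apart. The first 300 bases of the coding exon of IGLC2, IGLC3 and IGLC7, the leading lambda constant regions, are shown for this reason (GRCh38, plus strand, chr22:22900976-22901275, chr22:22906342-22906641 and chr22:22922594-22922893). Capitals mark, in IGLC2 and IGLC3, the bases at which these 2 differ, and, in IGLC7, the bases that differ from IGLC2.
IGLC2: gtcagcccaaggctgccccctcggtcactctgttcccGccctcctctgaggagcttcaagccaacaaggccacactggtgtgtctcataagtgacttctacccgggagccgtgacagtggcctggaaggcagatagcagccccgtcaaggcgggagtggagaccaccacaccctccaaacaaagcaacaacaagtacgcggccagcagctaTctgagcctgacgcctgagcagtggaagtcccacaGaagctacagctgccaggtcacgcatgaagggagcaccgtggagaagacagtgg
IGLC3: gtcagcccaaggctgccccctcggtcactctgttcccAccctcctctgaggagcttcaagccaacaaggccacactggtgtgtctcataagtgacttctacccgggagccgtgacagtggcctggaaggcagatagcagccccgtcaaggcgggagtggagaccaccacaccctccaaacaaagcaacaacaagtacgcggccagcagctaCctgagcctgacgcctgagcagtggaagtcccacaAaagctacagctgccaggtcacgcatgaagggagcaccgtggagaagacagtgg
IGLC7: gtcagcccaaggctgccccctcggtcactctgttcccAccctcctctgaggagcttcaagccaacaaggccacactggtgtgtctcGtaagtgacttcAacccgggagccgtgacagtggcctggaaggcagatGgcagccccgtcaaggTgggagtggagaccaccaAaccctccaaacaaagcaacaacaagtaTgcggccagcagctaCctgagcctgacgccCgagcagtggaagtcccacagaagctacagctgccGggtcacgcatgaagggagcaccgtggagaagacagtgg
IGLC3 differed from IGLC2 at 3 of 300 bases and IGLC7 at 10. Of the 432 stretches of 31 bases in the IGLC2 transcript, 308 (71.3%) also occur in IGLC3 and 47 in IGLC7. All 430 such stretches of IGLC1 occur in IGLL5, an immunoglobulin lambda-like gene, which held no count in any library.

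The opening bases of the second exon, which codes most of the variable domain, are shown for the 3 lambda variable rows with the most counts, because 1 of them is annotated as a pseudogene. They lie at chr22:22758904-22759173 (IGLV2-14), chr22:22698114-22698383 (IGLV2-23) and chr22:22664650-22664907 (IGLV2-28, the pseudogene), all on the plus strand of GRCh38. Capitals mark bases that differ from IGLV2-14 or have no counterpart in it.
IGLV2-14: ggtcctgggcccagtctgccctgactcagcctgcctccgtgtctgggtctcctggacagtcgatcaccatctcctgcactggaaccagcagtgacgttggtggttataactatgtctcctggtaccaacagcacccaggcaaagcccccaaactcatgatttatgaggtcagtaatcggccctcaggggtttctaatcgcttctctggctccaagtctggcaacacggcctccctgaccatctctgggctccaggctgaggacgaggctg
IGLV2-23: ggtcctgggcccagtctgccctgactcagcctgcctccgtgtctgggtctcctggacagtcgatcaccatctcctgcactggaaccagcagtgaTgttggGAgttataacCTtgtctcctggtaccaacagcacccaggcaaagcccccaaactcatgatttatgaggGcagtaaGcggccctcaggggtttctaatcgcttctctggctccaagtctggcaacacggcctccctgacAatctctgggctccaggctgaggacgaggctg
IGLV2-28: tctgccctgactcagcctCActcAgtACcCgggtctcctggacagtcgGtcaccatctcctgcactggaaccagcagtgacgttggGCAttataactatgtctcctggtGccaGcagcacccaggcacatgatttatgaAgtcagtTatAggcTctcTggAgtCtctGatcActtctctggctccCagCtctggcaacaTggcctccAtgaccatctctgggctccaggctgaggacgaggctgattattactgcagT
IGLV2-23 was identical to IGLV2-14 at 97.0% of 270 aligned bases. The stretch of IGLV2-28 was identical at 90.3% of 257 aligned bases and lacked 13 bases that IGLV2-14 has. Of the 372 stretches of 31 bases in IGLV2-14, 143 were found in IGLV2-23 and 26 in IGLV2-28.

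Promoters of immunoglobulin variable genes carry an octamer motif that is bound by the POU2F factors and their coactivator POU2AF1. The octamer was searched as ATGCAAAT or its reverse complement ATTTGCAT in the 300 bases before the start codon. It was found in 122 of 142 annotated variable genes (85.9%), in 33 of 45 kappa variable genes (73.3%) and in 1.77% of 35116 RefSeq promoter windows of the same length. The RefSeq windows came from a separate set of promoters and were not cut before start codons here, so these shares are not matched in position. Its surroundings are shown for IGKV1D-43 (chr2:90209948-90209977) and IGKV1D-8 (chr2:90220802-90220831), kappa genes whose rows held most of their counts on days 1 and 2, and for IGLV2-14 (chr22:22758622-22758651), the most abundant variable row. The kappa windows lie within the annotated genes and the lambda window lies before the annotated start of its gene. Capitals mark the octamer.
IGKV1D-43: gccccctgctaATTTGCATgttcccagagc
IGKV1D-8: atcccctgctcATTTGCATgttcccagagc
IGLV2-14: tcaaggtggagATTTGCATgcaggccccac
The motif began 95 bases before the start codon in both kappa genes and 108 bases before it in IGLV2-14. These letters were not in the window of IGKV3D-7 or of IGLV2-23.

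The libraries held between 6519392 and 10962890 counts. Plasma cell markers were present in all libraries (9 of 9 with counts), led by JCHAIN. Summed, they ranged from 4876 to 5470 CPM on day 0, from 2224 to 2537 on day 1 and from 5802 to 6898 on day 10. Markers of other cells were uneven within each list. Over all libraries, the T cell markers CD8A, CD3E and CD3G held 1500, 571 and 123 counts, while CD3D and CD2 held 3 each. Of the erythroid markers, HBA1 held 458 counts, HBA2 238 and HBB 5, and of the monocyte markers, CD14 held 132, CSF1R 59, LYZ 9 and FCGR3A 0. The summed B cell markers, most of them FCER2 (12944 counts, beside 2071 of MS4A1, 642 of PAX5 and 85 of CD22), ranged from 79.6 to 87.9 CPM on day 0, from 32.2 to 36.1 on day 1 and from 58.3 to 64.4 on day 10. Summed T cell markers ranged from 5.37 to 7.23 CPM on day 0, from 3.82 to 6.82 on day 1 and from 7.79 to 10.3 on day 10. Rows of T cell receptor segments ranged from 5.12 to 7.45 CPM, from 3.0 to 3.94 and from 3.15 to 5.28 on the same days. Erythroid markers ranged from 0.268 to 1.20 CPM on day 0 and from 2.02 to 3.81 on day 10, and monocyte markers were at or below 1.89 CPM on days 0, 1 and 10. The part of these markers in the immunoglobulin results was not tested.

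Immunoglobulin members made up a median of 3.12% of all counts on day 0 (2.88% to 3.26%). The median share on days 1, 2, 4, 6, 8 and 10 was 1.73%, 1.76%, 2.22%, 2.54%, 2.64% and 2.70%, in that order. Lambda rows held 98.8% of all immunoglobulin counts over the 35 libraries, kappa rows 0.823% and heavy chain rows 0.371%. Per kilobase of transcript the leading constant rows were 29329 CPM for IGLC2, 341 for IGKC and 43.7 for IGHG4, averaged over all libraries. With the longest annotated transcript in place of the shortest, the IGHG4 level was 18.8 CPM per kilobase. Fewer expressing cells and less RNA per cell cannot be told apart in these bulk samples.

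Summed by chain, lambda rows were lowest on day 1, when kappa rows were highest, and heavy chain rows were highest on day 4. Lambda rows went from 30805 ± 1515 CPM on day 0 (mean ± SD, n = 5) to 16550 ± 748 CPM on day 1 and 17100 ± 1201 CPM on day 2. On days 4, 6, 8 and 10 they were at 21723 ± 1643, 25415 ± 1238, 25489 ± 2813 and 26403 ± 2533 CPM. Every library of days 1, 2, 4, 6 and 8 was below the lowest day 0 library (28522 CPM), and day 10, which reached 29834 CPM, overlapped it. Summed kappa rows were 182 ± 6.83 CPM on day 0 and 269 ± 10.5 on day 1, and every day 1 library was above every day 0 library. On days 2, 4 and 10 they were at 205 ± 4.77, 167 ± 8.60 and 182 ± 7.99 CPM. Summed heavy chain rows were 66.9 ± 4.74 CPM on day 0 and 65.7 ± 5.54 on day 1, with overlapping libraries. From day 2 on all heavy chain totals lay above the highest day 0 library (73.7 CPM), with means of 84.6 ± 2.38, 108 ± 8.69, 93.7 ± 2.67, 93.1 ± 12.4 and 104 ± 3.90 CPM in time order. As a share of its day 0 mean, lambda was at 53.7%, kappa at 148% and heavy chain at 98.3% on day 1, and at 85.7%, 100.2% and 155% on day 10. The sums were not tested.

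**Figure D1:**
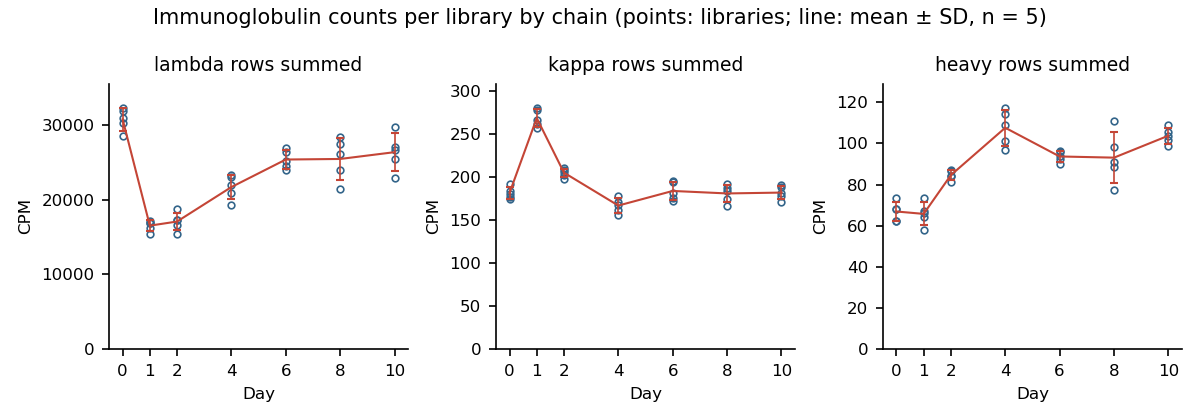
Summed CPM of lambda, kappa and heavy chain rows in each of the 35 libraries (points) by day, with the mean ± SD of 5 libraries (line). Lambda was lowest on day 1 (15376 to 17213 CPM), kappa was highest on day 1 (257 to 281 CPM), and heavy chain rows were highest on day 4 (96.6 to 117 CPM).

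Each row was compared with day 0 in 1 edgeR fit over all 31664 rows with 100 or more counts, and a row was called at an adjusted p of 0.05 or less. Held at their day 0 level on all days, 27 members would still have reached 100 counts. The other 5 (IGKV3D-7, IGKV1D-8, IGKV2D-40, IGKV1D-43 and IGLVIVOR22-1) would not, and are members through their counts on later days, so that a rise from day 0 was built into the rule. Their values are given as a description with no test, and counts of calls in this fit are given with and without them. On day 1, 7 of 32 members were higher (3 of the 27) and 10 lower (all among the 27), where 22.6% of all rows tested were higher and 24.8% lower, and 9 members (5 of the 27) were called with a fold above 2, where 23.6% of all rows were. On day 2, 6 were higher (3 of the 27, beside 21.3% of all rows), 11 lower (19.4%) and 7 past a fold of 2 (4 of the 27, beside 16.9%). On day 4, 7 were higher (4 of the 27, beside 17.1% of all rows), 9 lower (15.6%) and 8 past a fold of 2 (5 of the 27, beside 11.3%). On day 6, 4 were higher (3 of the 27, beside 14.5% of all rows), 7 lower (12.8%) and 3 past a fold of 2 (2 of the 27, beside 8.66%). On day 8, 7 were higher (3 of the 27, beside 15.8% of all rows), 6 lower (14.4%) and 7 past a fold of 2 (3 of the 27, beside 9.72%). On day 10, 3 were higher (13.3% of all rows), 4 lower (11.5%) and 3 past a fold of 2 (6.97%), all among the 27. Without scaling factors between libraries, 3 members were higher and 7 lower on day 10. Between day 1 and day 10, 11 members rose (21.2% of all rows), 4 fell (1 of the 27, beside 20.2%) and 5 were past a fold of 2 (2 of the 27, beside 17.8%). The comparisons with day 0 share its 5 libraries and are not independent of each other.

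On day 1 the log2 fold changes had a median of −0.35 over all 32 members and −0.68 over the 27. Over all rows tested it was −0.13. The 27 were kept by their day 0 counts, which leaves out risen rows and lowers the median. The rows tested were not chosen in this way, so the medians are not matched. The chains were spread around the medians of the members. All 7 lambda members called on day 1 were lower, with a median of −0.86 over 13 lambda members. Of the 6 kappa members among the 27, IGKC was higher and IGKJ4 lower on day 1, and of the 8 heavy chain members 2 were higher and 2 lower. On day 10 the median over the 27 was −0.24, beside −0.02 over all rows. It was −0.15 over 31 members, without IGKV3D-7, which held no count on either day. No kappa member was called by edgeR on day 10, when 3 of all 10 kappa members had an unadjusted p under 0.05. Of these 3, IGKV1D-8 and IGKV2D-40 are among the 5 members whose rise was built into the rule, and IGKJ5 is among the 27. DESeq2 called 10 members on day 10. The 1 kappa row among them was IGKV2D-40, for which a rise was built into the rule, so its call is no test.

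The lambda chain was dominated by 5 rows that fell together and returned slowly. IGLC2, the leading constant region (22900976 to 22901437 on chromosome 22), was at 18800, 17900, 16300, 18400 and 17500 CPM in the 5 day 0 libraries. It was at 8870, 9840, 9530, 9860 and 9350 CPM on day 1, and at 14900, 15900, 16900, 15600 and 13400 CPM on day 10. All day 1 libraries were below all day 0 libraries, whereas day 10 and day 0 overlapped in 1 of the 5 day 10 libraries. The log2 fold change was −0.89 on day 1 (SE 0.09, adjusted p = 8.5e-10), −0.87 on day 2, and −0.53 on day 4 (adjusted p = 2.8e-05). It was −0.29 on day 6 (adjusted p = 0.020), −0.24 on day 8 (adjusted p = 0.047) and −0.24 on day 10 (adjusted p = 0.060). Between day 1 and day 10 it rose by 0.65 (SE 0.09, adjusted p = 5.5e-07).

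The other leading lambda rows moved with IGLC2. IGLV2-14 (22758700 to 22759218 on chromosome 22) had 4880 to 5390 CPM on day 0, 2570 to 3010 on day 1 and 3640 to 5150 on day 10. IGLV2-23 (22697789 to 22698407) had 2850 to 3190 CPM on day 0 and 1550 to 1780 on day 1. IGLC3, the constant region next to IGLC2 (22906342 to 22906803), had 2670 to 3030 CPM on day 0 and 1460 to 1650 on day 1. IGLV2-28, annotated as a pseudogene (22664473 to 22664907), had 1740 to 1960 CPM on day 0 and 907 to 1070 on day 1. In each of these rows the groups of days 0 and 1 did not overlap. Their log2 fold changes on day 1 were −0.86, −0.86, −0.85 and −0.90 in that order, with adjusted p values of 2.9e-09 or less, and on day 10 they were −0.29, −0.25, −0.20 and −0.27. On day 10, IGLV2-14 (adjusted p = 0.021) and IGLV2-28 (adjusted p = 0.023) were called lower by edgeR and the other 3 leading rows were not, whereas DESeq2 also called IGLC2 and IGLV2-23.

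The late calls of these 5 rows lay close to the threshold. Single day 0 libraries (replicates 1, 2, 4 and 5), every day 6 library, and replicates 1, 3 and 4 of day 8 and 1, 4 and 5 of day 10 each ended at least 1 of their calls on days 6 to 10 when left out. For IGLC2 the log2 fold change then ranged from −0.33 to −0.25 on day 6 (adjusted p 0.0099 to 0.084) and from −0.31 to −0.16 on day 8 (adjusted p 0.012 to 0.20). The calls of IGLV2-14 and IGLV2-28 on day 10 each ended in 6 of 10 such fits, with adjusted p up to 0.087 and 0.093.

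Shares of the leading lambda rows moved little. IGLV2-14 held 51.2% ± 0.269 of the counts of the 3 leading variable rows on day 0, 51.4% ± 0.491 on day 1 and 50.5% ± 0.438 on day 10 (mean ± SD, n = 5). IGLV2-23 held 30.4% ± 0.297, 30.6% ± 0.122 and 30.98% ± 0.327, and the pseudogene IGLV2-28 held 18.4% ± 0.338, 18.0% ± 0.496 and 18.5% ± 0.439. On day 6 the share of IGLV2-14 was 49.0% to 50.3%, below all day 0 libraries (50.8% to 51.5%). IGLC2 held 86.0% ± 0.137 of the counts of the 4 lambda constant rows on day 0 and 85.6% ± 0.108 on day 1, and IGLC3 held 13.9% ± 0.142 and 14.2% ± 0.111. IGLC7, the constant region at 22922594 to 22923034, held 0.114% ± 0.0114 on day 0, 0.106% ± 0.0122 on day 1 and 0.165% ± 0.0135 on day 2. Whether reads of 1 lambda gene were spread over several of these rows was not tested.

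The ratio of 2 rows within a library needs no scaling between libraries. IGLC2 was set against IGKC, IGHG4, IGLV2-14 and IGLC3 on each day, and the 24 differences of log2 ratios from day 0 were tested by exact two-sided permutation of 5 against 5 libraries, for which the smallest possible p is 0.00794. The ratio of IGLC2 to IGKC fell from 108 ± 4.00 on day 0 to 39.3 ± 0.660 on day 1 (mean ± SD, n = 5), and was 53.7 ± 3.09, 82.3 ± 2.59 and 91.4 ± 6.41 on days 2, 4 and 10. It lay below day 0 in every library of every later day, by 1.46 log2 units on day 1 and 0.24 on day 10 (exact permutation, adjusted p = 0.0136 on each day). The ratio of IGLC2 to IGHG4 fell from 547 ± 51.6 on day 0 to 266 ± 23.5 on day 1 and 203 ± 16.4 on day 4, and was 260 ± 27.6 by day 10. It too lay below day 0 in every later library, with log2 differences of −1.04 on day 1, −1.43 on day 4 and −1.07 on day 10 (exact permutation, adjusted p = 0.0136 on each day).

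Within lambda the ratios moved little. IGLC2 to IGLV2-14 was 3.45 ± 0.0646 on day 0, 3.38 ± 0.124 on day 1 and 3.67 ± 0.0765 on day 6, and of the 6 days only day 6 passed the test, with a log2 difference of 0.09 (exact permutation, adjusted p = 0.0136). IGLC2 to IGLC3 was 6.19 ± 0.0734 on day 0 and 6.01 ± 0.0544 on day 1. Its log2 differences of −0.04, −0.05, −0.03 and −0.04 at days 1, 2, 4 and 10 passed (exact permutation, adjusted p between 0.0136 and 0.0336), and those of days 6 and 8 did not.

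**Figure D2:**
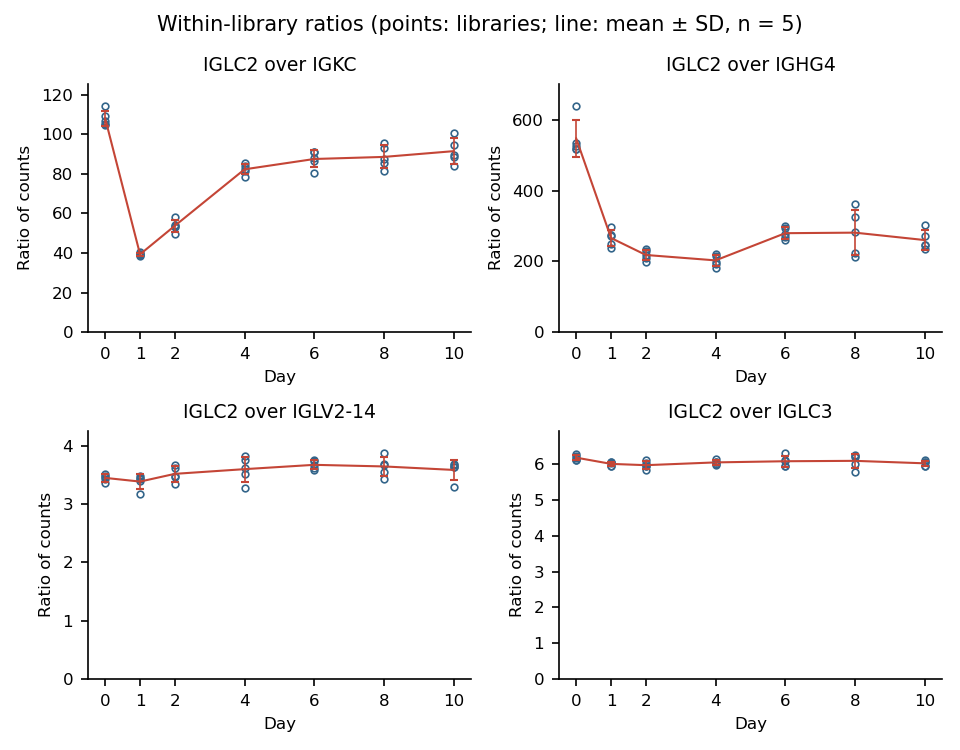
Ratio of the estimated counts of IGLC2 to those of IGKC, IGHG4, IGLV2-14 and IGLC3 in each library (points) by day, with the mean ± SD of 5 libraries (line). The ratio to IGKC was lowest on day 1 (38.5 to 40.3, against 105 to 114 on day 0), the ratio to IGHG4 was lowest on day 4 (182 to 222, against 517 to 639), and those to IGLV2-14 and IGLC3 stayed between 3.17 and 3.87 and between 5.80 and 6.31.

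IGLC7 was lower on days 1 and 2 and was not called from day 4 on. It had 27.1, 26.6, 20.5, 23.6 and 20.5 CPM on day 0 and 11.5, 10.1, 13.5, 12.4 and 11.4 CPM on day 1, without overlap. Its log2 fold change was −1.0 on day 1 (SE 0.11, adjusted p = 2.9e-09), −0.34 on day 2 (adjusted p = 0.0098), −0.10 on day 4 (adjusted p = 0.53) and 0.00 on day 10 (adjusted p = 0.99). The day 2 call ended without day 0 replicate 2 (log2 fold change −0.27, adjusted p = 0.061). The pseudogene row IGLV2-34 had 2.11 to 3.71 CPM on day 0 and 0.438 to 1.63 on day 1, a log2 fold change of −1.52 (SE 0.35, adjusted p = 0.00056), and on day 10 its value was −0.02. Its day 2 call (−0.87, adjusted p = 0.036) ended in 5 of 10 fits without 1 library, namely day 0 replicates 2 and 5 and day 2 replicates 3, 4 and 5, where adjusted p reached 0.11. IGLC1 was called lower on day 2 alone (−0.98, adjusted p = 0.041), and this call ended without day 0 replicate 1, 2 or 4 or day 2 replicate 2, 3 or 4 (adjusted p up to 0.12). IGLV2-8, IGLC6, IGLV2-5, IGLV5-52 and IGLV2-11 passed on no day against day 0, with log2 fold changes on day 1 of −0.50, −0.75, −0.34, 0.60 and −0.70. IGLVIVOR22-1, a variable pseudogene outside the locus, had 0 to 0.481 CPM on day 0 and 0.195 to 1.14 on day 8, the day with the most counts.

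The kappa constant region was highest on day 1, and in the edgeR fit of all libraries it was called against day 0 on that day alone. IGKC (88857161 to 88857683 on chromosome 2, minus strand) had 165, 168, 156, 175 and 160 CPM on day 0 and 231, 250, 241, 253 and 232 CPM on day 1. All day 1 libraries were above all day 0 libraries. The log2 fold change was 0.56 on day 1 (SE 0.08, adjusted p = 1.2e-07), 0.14 on day 2 (adjusted p = 0.16), −0.14 on day 4 (adjusted p = 0.17) and 0.00 on day 10 (adjusted p = 0.99). The day 2 libraries, at 178 to 188 CPM, also lay above all day 0 libraries. The day 2 difference passed without scaling factors and in a fit of these days alone. IGKC held 90.8% ± 0.796 of kappa counts on day 0, 89.8% ± 0.605 on day 1 and 92.0% ± 1.44 on day 10.

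The 3 variable rows with the most kappa variable counts were at or near 0 on day 0 and had most of their counts on days 1 and 2. They are members through those days, so a rise from day 0 was built into the rule and is described here, not tested. IGKV1D-43, IGKV1D-8 and IGKV3D-7 lie in this order within 25.5 kb of chromosome 2 (90209873 to 90235370, plus strand). IGKV3D-7 held no count in any day 0 library and 4.92, 5.59, 7.66, 6.57 and 6.36 CPM on day 1. It held 3.61, 3.38, 2.85, 3.03 and 2.22 CPM on day 2, and no count in any library of day 10. Of its 372 counts, 17 lay outside days 1 and 2. Its 222 counts on day 1 were at least 79.4-fold higher than a limit of 3 counts over the 5 day 0 libraries, and its 133 counts on day 2 were at least 39.2-fold higher. On days 4 and 8 it held 8 and 6 counts.

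IGKV1D-8 went from 0.106, 0, 0, 0.151 and 0.149 CPM on day 0 to 2.27, 2.86, 4.11, 4.09 and 3.85 CPM on day 1 and to 3.98, 4.83, 5.41, 3.03 and 3.74 CPM on day 2. Of its 400 counts, 89 lay outside days 1 and 2. Its 122 counts on day 1 against 3 on day 0 gave a ratio of 43.6 (95% counting interval 14.6 to 215), and its 189 counts on day 2 a ratio of 55.6 (18.8 to 272). On days 4, 6, 8 and 10 the ratio was 13.0, 6.54, 4.71 and 3.59, in that order, the last with an interval of 0.949 to 20.1. IGKV1D-43 went from 0 to 0.297 CPM on day 0 to 3.28, 3.27, 3.55, 4.67 and 3.55 CPM on day 1, with 131 counts against 4 (ratio 35.1, 13.4 to 131) and 26 counts in all outside days 1 and 2. It had 1.37 to 1.93 CPM on day 2 (ratio 14.6, 5.43 to 55.1), and from day 4 on its ratio lay between 0.892 and 1.88. No library of days 1 and 2 overlapped day 0 in these 3 rows, and counting intervals cover counting error only. With a rise built into the rule, neither the intervals nor the lack of overlap is a test of it.

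IGKV1D-8 shared 64 of its 504 stretches of 31 bases with IGKV1D-43, and IGKV3D-7 shared 0 with IGKV1D-8 and 10 with IGKV1D-43. Summed over the 3 rows, counts went from 0.197 ± 0.176 CPM on day 0 to 13.3 ± 2.17 on day 1 and 8.75 ± 1.02 on day 2, and were 1.36 ± 0.748 and 0.400 ± 0.137 CPM on days 4 and 10, beside 143 CPM or more of IGKC in every library. IGKV2D-40, the other kappa variable member (89851791 to 89852493), had counts in 1 day 0 library alone (3 counts) and 23 counts on day 1, a ratio of 8.23 (2.49 to 42.8). It held 34 counts on day 4 (ratio 11.7), 40 on day 8 (ratio 12.6) and 23 on day 10 (ratio 7.51, 2.27 to 39.1). A rise was built into the rule for IGKV2D-40 as well, so these ratios and intervals are no test.

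Among the kappa joining segments, which link the variable to the constant part, IGKJ1, IGKJ3 and IGKJ4 were lower on some days. IGKJ1 had 9.06 to 10.7 CPM on day 0 and 6.53 to 11.4 on day 1, and it was called on day 4 alone, at 6.82 to 8.14 CPM (log2 fold change −0.46, SE 0.11, adjusted p = 0.0015). IGKJ3 had 1.81 to 3.12 CPM on day 0 and 0.786 to 1.52 on day 2, and was lower on days 2 (−1.12, adjusted p = 0.0054), 4 (−1.63, adjusted p = 0.00024) and 8 (−1.41, adjusted p = 0.0012). IGKJ4 was lower on days 1 and 2 (−1.17 and −1.14, adjusted p = 0.040 and 0.048), and these calls ended in 6 and 8 of 10 fits without 1 library (adjusted p up to 0.11), with day 0 replicates 1, 3 and 5 among those left out on both days. With edgeR, IGKJ2 and IGKJ5 passed on no day, at −0.18 and −0.68 on day 1. On day 2 all 5 IGKJ5 libraries lay below day 0 (−1.08, adjusted p = 0.052), and DESeq2 called this difference. Summed, IGKJ1 to IGKJ5 were at 16.5 ± 1.06 CPM on day 0, 13.5 ± 2.47 on day 1 and 10.8 ± 0.955 on day 4. On day 10 the sum was 13.4 ± 1.86 CPM. Every library of days 2, 4, 6 and 8 lay below day 0 in this sum, and days 1 and 10 overlapped it. The sum was not tested. These joining rows are 37 to 39 bases long and hold 7 to 9 stretches of 31 bases each, which limits how they could be counted.

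**Figure D3:**
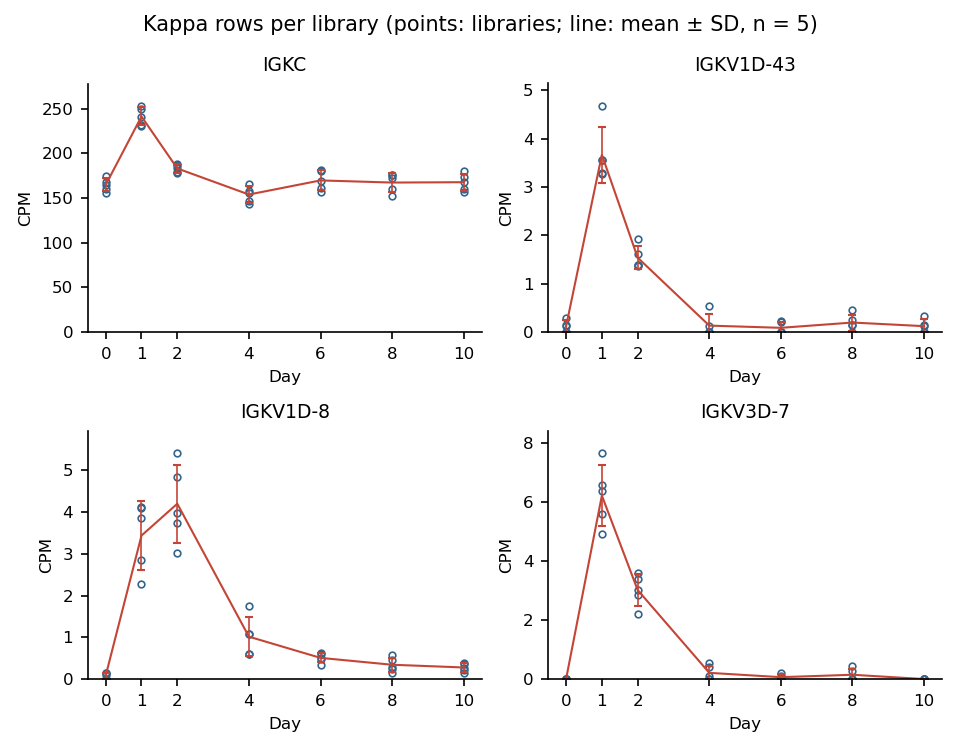
CPM of IGKC and of the neighbouring variable rows IGKV1D-43, IGKV1D-8 and IGKV3D-7 in each library (points) by day, with the mean ± SD of 5 libraries (line). IGKC rose from 156 to 175 CPM on day 0 to 231 to 253 CPM on day 1, and the 3 variable rows, at or below 0.297 CPM on day 0, reached 2.27 to 7.66 CPM on day 1.

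Heavy chain rows were led by gamma constant regions. IGHG4 and IGHG2 were higher from day 2 on and IGHG3 from day 1 on, while IGHG1 and the pseudogene IGHGP passed on no day. IGHM and IGHD, the constant regions of IgM and IgD, held no count, and no heavy variable gene was a member. IGHG4 (105620506 to 105626066 on chromosome 14, minus strand) had 29.5, 34.4, 31.5, 34.3 and 33.3 CPM on day 0 and 37.5, 35.7, 32.1, 36.2 and 37.4 CPM on day 1. On day 4 it had 63.3, 67.4, 59.8, 64.4 and 57.9 CPM and on day 10 it had 60.3, 58.5, 55.7, 63.1 and 57.2 CPM. The groups of days 0 and 1 overlapped, and from day 2 on all libraries lay above day 0. The log2 fold change was 0.15 on day 1 (SE 0.07, adjusted p = 0.11), 0.46 on day 2 (adjusted p = 3.7e-06), 0.90 on day 4 (adjusted p = 5.6e-12) and 0.83 on day 10 (adjusted p = 7.6e-11). Between day 1 and day 10 it rose by 0.69 (adjusted p = 1.2e-09).

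IGHG2 (105639559 to 105644790) had 17.7 to 25.4 CPM on day 0, 16.2 to 24.9 on day 1 and 31.1 to 32.2 on day 10. Its libraries of days 1, 6 and 8 overlapped those of day 0. Its log2 fold change was −0.03 on day 1 (adjusted p = 0.83), 0.35 on day 2 (adjusted p = 0.0075), 0.57 on day 4 and 0.60 on day 10 (SE 0.11, adjusted p = 4.7e-05). The day 2 call ended without day 0 replicate 3 (0.26, adjusted p = 0.061) and in a fit of protein-coding and immunoglobulin rows alone (0.16, adjusted p = 0.20). IGHG3 (105764503 to 105771405) had 1.38, 0.963, 1.21, 1.20 and 1.93 CPM on day 0 and 3.44, 3.26, 2.88, 4.50 and 4.21 CPM on day 10, without overlap. It was higher on every day, by 0.93 on day 1 (SE 0.24, adjusted p = 0.0013) and 1.42 on day 10 (SE 0.23, adjusted p = 1.2e-05). Day 1 and day 0 libraries of IGHG3 overlapped. IGHG1 had 1.05 to 2.02 CPM on day 0 and 1.22 to 2.76 on day 10, and IGHGP had 1.17 to 1.63 and 1.35 to 2.37 CPM. On day 4 all IGHG1 libraries, at 2.14 to 2.81 CPM, lay above day 0, although the row was not called. IGHG4 shared 1081 of its 2710 stretches of 31 bases with IGHG2 and 1132 with IGHG3, so counts of single gamma rows are less certain than their sum. Summed gamma rows, IGHGP included, were at 57.5 ± 4.74, 61.3 ± 5.83, 102 ± 8.06 and 98.4 ± 3.04 CPM on days 0, 1, 4 and 10.

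Of the alpha constant regions, those of IgA, IGHA2 was lower on every day after the pulse and IGHA1 on days 1, 4, 6 and 10. IGHA2 (105583731 to 105588395) had 6.60, 6.62, 6.31, 4.67 and 7.13 CPM on day 0, 2.02, 1.09, 1.84, 0.292 and 1.48 CPM on day 1, and 3.58, 3.04, 2.22, 3.28 and 1.05 CPM on day 10. On every day all its libraries lay below those of day 0, and its log2 fold change was −2.19 on day 1 (SE 0.28, adjusted p = 6.0e-08) and −1.26 on day 10 (SE 0.27, adjusted p = 0.00045). IGHA1 (105703995 to 105708665) had 1.56 to 2.08 CPM on day 0, 0.146 to 0.818 on day 1 and 0.658 to 1.31 on day 10. Its log2 fold change was −1.97 on day 1 (SE 0.36, adjusted p = 2.3e-05) and −1.02 on day 10 (SE 0.33, adjusted p = 0.022), and the day 10 call ended without day 10 replicate 5 (−0.91, adjusted p = 0.063). On days 2 and 8 its libraries overlapped day 0, with log2 fold changes of −0.70 (adjusted p = 0.086) and −0.44 (adjusted p = 0.35). IGHA2 shared 655 of its 1399 stretches of 31 bases with IGHA1. Together they fell from 12.2% ± 1.54 of heavy chain counts on day 0 to 2.79% ± 1.25 on day 1, a share that was 3.44% ± 1.04 on day 10, while the gamma rows went from 85.8% ± 1.71 to 93.2% ± 1.78 and 94.8% ± 1.28. The shares were not tested. IGHV1OR15-6, a heavy variable pseudogene on chromosome 15 (20639464 to 20639890), had 0.594 to 2.41 CPM on day 0 and 1.91 to 3.12 on day 1, and was higher on days 1 (1.04, adjusted p = 0.0068) and 4 (1.01, adjusted p = 0.012).

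**Figure D4:**
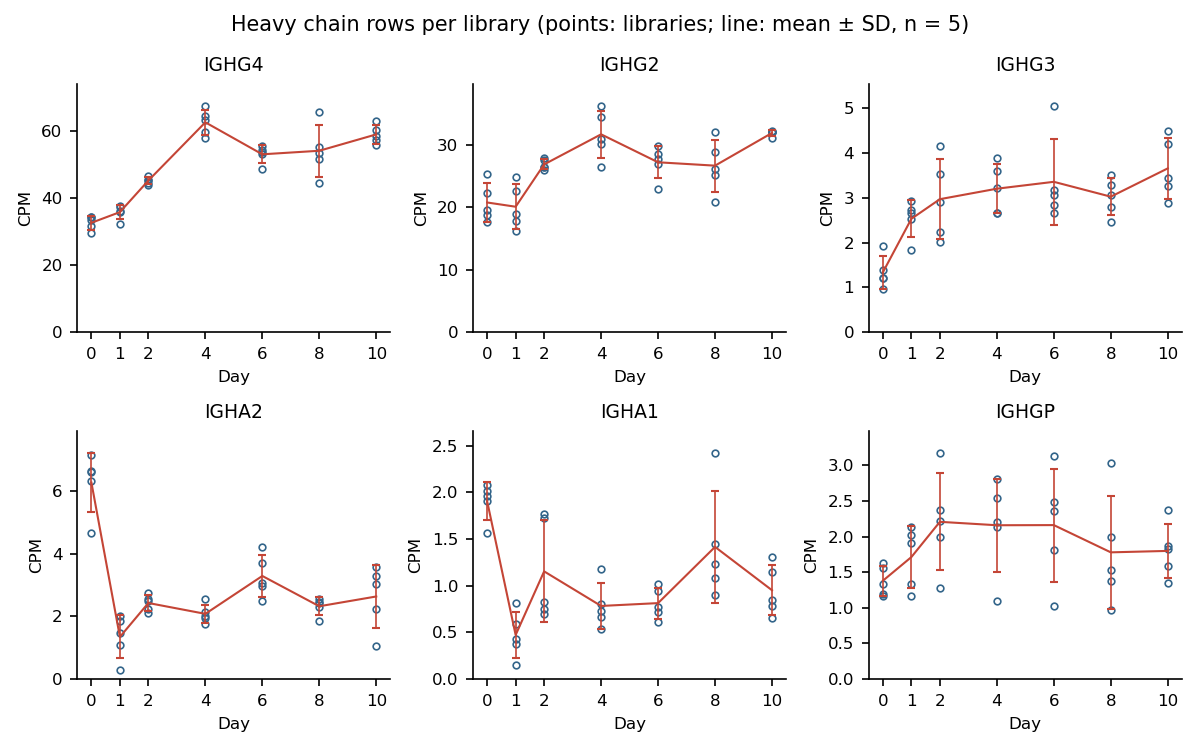
CPM of 6 heavy chain rows in each library (points) by day, with the mean ± SD of 5 libraries (line). IGHG4 went from 29.5 to 34.4 CPM on day 0 to 55.7 to 63.1 on day 10, and IGHA2 went from 4.67 to 7.13 CPM on day 0 to 0.292 to 2.02 on day 1.

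**Figure D5:**
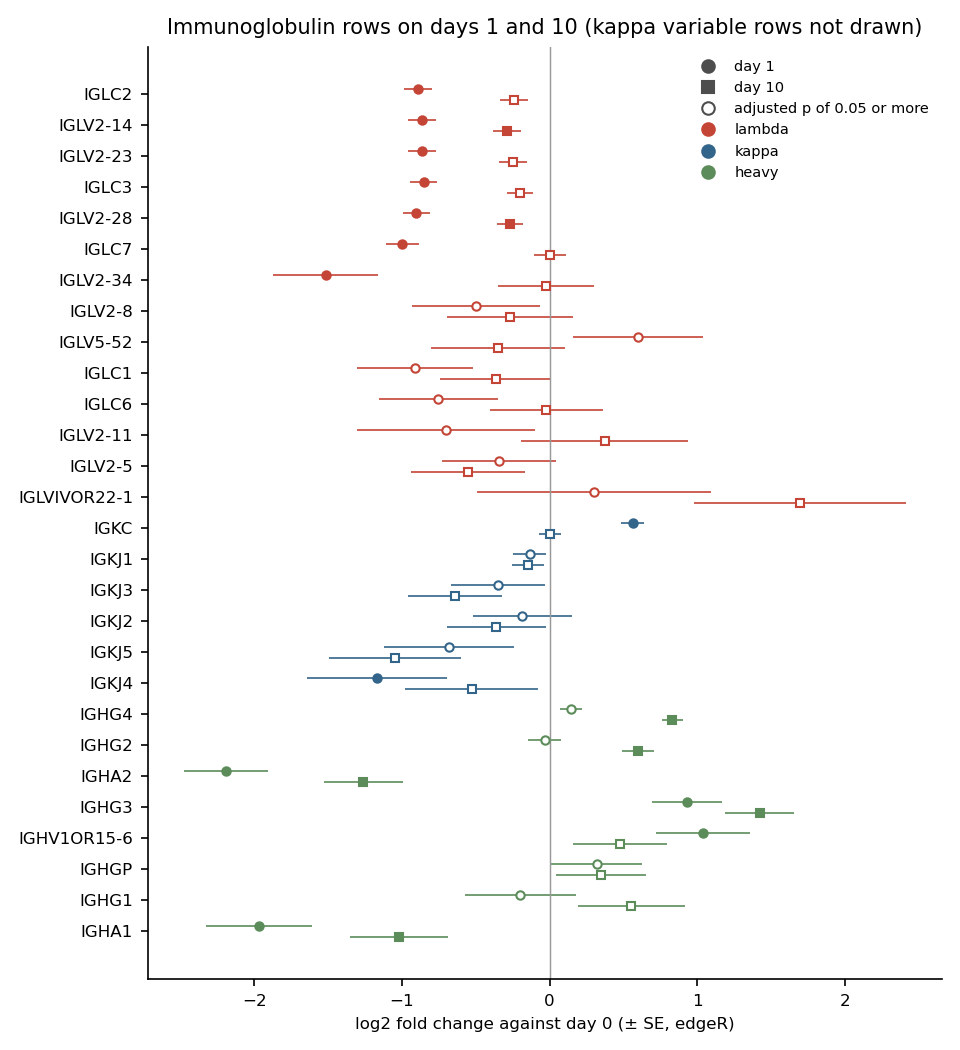
Fitted log2 fold change against day 0 on day 1 (circles) and day 10 (squares) with its standard error, for the lambda, heavy chain, kappa constant and kappa joining rows, filled where the adjusted p was 0.05 or less. The kappa variable rows, with 0 to 4 counts on day 0, are left out because their fitted values depend on the prior count. IGLVIVOR22-1 is drawn, although a rise in this row was built into the rule, so its points are a description. The leading lambda rows sit near −0.9 on day 1, and IGHG4, IGHG2 and IGHG3 are to the right of 0 on day 10.

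Other genes of immunoglobulin expression were counted from a list of 27, of which 23 were tested. On day 1, 5 were higher and 14 lower, beside 22.6% and 24.8% of all rows tested, and on day 10, 7 were higher and 4 lower, beside 13.3% and 11.5%. Of 8 chaperones, 5 were lower and 0 higher on day 1, and 3 were lower and 1 higher on day 10. JCHAIN, the joining chain of polymeric IgA and IgM, had 3382 to 3955 CPM on day 0, 1101 to 1304 on day 1 and 4051 to 5148 on day 10, a log2 fold change of −1.53 on day 1 (SE 0.09, adjusted p = 1.2e-16) and 0.29 on day 10 (adjusted p = 0.0087). MZB1, a chaperone of immunoglobulin assembly, had 296 to 334 CPM on day 0, 171 to 208 on day 1 and 465 to 504 on day 10 (−0.68 and 0.58, adjusted p = 2.1e-08 and 1.2e-06). HSPA5, the chaperone BiP that holds unassembled heavy chains, was lower on both days (−0.74 and −0.56, adjusted p = 1.1e-11 and 2.7e-08). Chaperones past a fold of 2 on day 1 were PDIA4 (−1.0) and DNAJB9 (−1.50).

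Among factors that act on immunoglobulin genes, POU2AF1 went from 188 to 198 CPM on day 0 to 271 to 293 on day 1 and 255 to 300 on day 10 (log2 fold changes 0.56 and 0.51, adjusted p = 7.4e-12 and 5.9e-10). POU2F2 went from 5.12 to 8.40 CPM on day 0 to 1.09 to 1.99 on day 1 and 9.68 to 15.2 on day 10 (−2.27 and 0.66, adjusted p = 1.7e-11 and 0.0031), and POU2F1 was past a fold of 2 on day 10 (1.01). XBP1, the transcription factor of the secretory programme, was higher on day 1 (0.24, adjusted p = 0.0054) and not called on day 10 (0.00, adjusted p = 0.99). ELL2, an elongation factor that directs the secreted form of heavy chain RNA, was lower on both days (−0.60 and −0.61). SPIB was lower on day 1 (−1.23).

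The receptor partner CD79A was lower on day 1 (−1.74) and higher on day 10 (1.38). CD79B went from 35 counts over the day 0 libraries to 1 over those of day 1, a ratio of 0.0307 (95% counting interval 0.000755 to 0.182, adjusted p = 0.0016 by edgeR). VPREB1, a surrogate light chain gene, rose from 0.481 to 1.49 CPM on day 0 to 5.55 to 7.30 on day 1 and 4.27 to 6.05 on day 10 (2.97 and 2.55). RAG1, a recombinase of the joining reaction, fell from 7.70 to 14.6 CPM on day 0 to 2.48 to 4.88 on day 1 (−1.59, adjusted p = 2.2e-09), while RAG2 held 1 count in all. IGLL1, IGLL5 and RAG2 were below the count minimum.

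Across the 7 day means, the rows outside the immunoglobulin biotypes whose log2 CPM was most like that of IGLC2 were a retained-intron row of NAGK (r = 0.994), PLEKHM1P (r = 0.994), TNRC18 (r = 0.991), RP11-384K6.6 (r = 0.990) and a retained-intron row of SERF2 (r = 0.989). This ranking covers 11058 rows with a mean of 10 CPM or more, of which 560 had r above 0.9, and the points share libraries and their scaling.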

How the data were processed

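RNA of RPMI-8226 cells was sequenced in 35 libraries, 5 for each of 7 days, from stranded paired-end libraries of 75-base reads. The authors deposited estimated counts as whole numbers for each gene symbol and biotype, made with Kallisto 0.44.0 against GENCODE release 28 (GRCh38.p12) adjusted for GC bias, and collapsed to genes by tximport 1.9.8 in R 3.5.0. Their own DESeq2 1.25.8 fit held protein-coding rows, which leaves out immunoglobulin rows. Pseudoalignment to germline segments cannot represent the joined and mutated variable region of a clone, and reads shared by near-identical rows are divided by an estimate.

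Here no reads were realigned. The quasi-likelihood test of edgeR 4.0.16 (R 4.3.3) was applied to rows with 100 or more counts, scaled by TMM, in a model of day that took in all 35 libraries, with Benjamini–Hochberg adjustment over all rows of a comparison. Ratios within a library were tested by exact permutation in SciPy 1.17.1, on counts with 0.5 added. The edgeR test was checked on simulated counts with known changes. These changes were placed only in rows expected to hold more than a few counts per library. Changes in rows of lower counts were not covered by the check. Counting intervals are exact at 95%, and a day without counts was set to 3 counts over its 5 libraries. Positions and sequences came from GENCODE release 44 of the same build. RefSeq supplied the promoter windows.

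Replicates were numbered in the labels. Deviations of same-numbered libraries had correlations between −0.05 and 0.08, so the numbers were not taken to pair libraries. Named members were the 3 most abundant of each chain and kind, and those with the largest rise and fall on days 1, 2, 6 and 10 without overlap with day 0. Other members named were chosen after their values were seen. The members and lists were chosen with earlier results of these data known. The alternatives were other scaling factors (RLE of DESeq2, none, or TMM without immunoglobulin rows), other count minimums, DESeq2 1.42.0, fits of fewer rows or libraries, a replicate block, other pseudocounts, and each library left out in turn. Sequencing batches are not named in the files and were not tested. Proteins were not analysed here. Some genes of the marker and pathway lists are not reported here.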

Additional observations from a re-analysis of the deposited data

Results flagged for a closer look

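Of 182 groups of 5 libraries examined (23 named members and the 3 chain totals on each of 7 days), 5 held a library set apart from the others by more than the 95% limit of Dixon's test, where chance flags about 1 in 20 groups. IGHG2 was at 31.1 CPM in replicate 3 of day 10, and at 31.96 to 32.2 CPM in the other 4 libraries. IGKV1D-43 was at 4.67 CPM in replicate 4 of day 1 (others 3.27 to 3.55) and at 0.535 CPM in replicate 4 of day 4 (others 0 to 0.134). IGLC7 was at 17.5 CPM in replicate 5 of day 2 (others 19.2 to 19.7), and IGHG3 was at 5.05 CPM in replicate 2 of day 6 (others 2.67 to 3.17).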

How the results depend on the processing

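No called result changed direction under any alternative run, and every chain total stayed within its spread. The number of members called on day 10 (7 of 32) was 4 with every row that held a count in the test and 12 in a fit of protein-coding and immunoglobulin rows. The day 8 number (13) was 8 with filterByExpr (28 members tested), 8 with every row that held a count and 7 in a fit of these days alone, and each library left out in turn gave 8 to 14, with 8 without day 0 replicate 1, 4 or 5. With the replicate block, 17, 17, 16, 11, 12 and 8 members were called on days 1, 2, 4, 6, 8 and 10 against day 0. Counts of members under alternative fits, here and above, are not split into the 27 members and the 5 whose rise was built into the rule. Shares of all rows called under the same settings are not given beside them. In the fit of all libraries, 3 members higher and 6 lower on day 8 were among the 27. The block added IGLV2-23 on day 10 and changed no other call of the named members outside the kappa variable rows. No replicate block was run for the ratios, whose smallest p over the 32 sign changes of 5 pairs is 0.0625. Differences of log2 ratios from day 0 were recomputed with each library left out. For IGLC2 to IGLC3 they ranged from −0.038 to −0.025 on day 4 and from −0.037 to −0.015 on day 6. For IGLC2 to IGLV2-14 they were 0.037 to 0.093 on day 4, 0.057 to 0.10 on day 8 and 0.044 to 0.086 on day 10. The IGLC2 to IGLC3 call of day 4 ended in 7 of 10 such tests. With every row that held a count in the test, the calls of IGLC2, IGLC3 and IGLV2-23 on day 6, of IGLC2, IGLV2-23 and IGLV2-28 on day 8, of IGLV2-14, IGLV2-28 and IGHA1 on day 10 and of IGLV2-34 on day 2 ended. In fits of the compared days alone, those of IGLC2, IGLV2-23 and IGLV2-28 on day 8 and of IGLV2-34 on day 2 ended. The kappa variable rows, whose calls are not used as tests, are left out of these lists. The filterByExpr filter ended those of IGLC2, IGLV2-23 and IGLV2-28 on day 8, RLE size factors that of IGLC2 on day 8, and the fit of protein-coding and immunoglobulin rows that of IGHG2 on day 2. The cause of these shifts was not tested. Rows of a few counts per library limit the precision of the kappa variable, joining and alpha results, and shared sequence limits how single lambda and gamma constant rows can be told apart.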
